A study of Sus scrofa domesticus with 16 samples.

Results

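The collagens and other extracellular matrix genes of the porcine adrenal gland were examined as a group of 47 genes out of 6765 that carried a single gene symbol on the array. The rule for members used gene symbols and no measured value. It took the genes whose symbol begins with COL and a digit, or with LAMA, LAMB, LAMC, MMP, TIMP, ADAMTS, FBLN or THBS, together with FN1, FBN1, DCN, LUM, BGN, SPARC, MGP, POSTN, DPT and VCAN, and each gene was represented by its brightest probe set. Of the 47 members, 31 were bright enough to be tested, against 5455 of all genes.

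RNA came from the adrenal glands of 16 domestic pigs (Sus scrofa domesticus), 1 animal per Affymetrix porcine genome array. The 8 low stress animals came from a mixing treatment with low aggressiveness and the 8 high stress animals from one with high aggressiveness. All 16 were pigs mixed with unfamiliar pigs, so the low stress group is not an unmixed control, and the submitters picked the groups because they differed in fighting and in plasma cortisol. The labels used here give no age, sex or breed line, and no part of the gland.

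The extracellular matrix is the network of secreted proteins that surrounds cells. Fibrillar collagens form its load-bearing fibres, while collagen IV, laminins and their partners form the basement membranes on which endothelial and gland cells rest. Glycoproteins and small proteoglycans link these networks, metalloproteases of the MMP and ADAMTS families cut them, and TIMP proteins inhibit those proteases. In the adrenal gland the matrix forms the outer capsule and the thin basement membranes around the sinusoidal vessels of cortex and medulla.

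Each array gave a signal, a linear intensity scaled by the submitters so that the trimmed mean of every array was 500, and the median signal lay between 116 and 147. The number of arrays, 8 in each group, and the spread between animals limit the precision. The signal of the dap spike-in control, a bacterial RNA for which these arrays carry probe sets, separated the arrays into 8 with 353 to 511 (the low-spike set) and 8 with 2940 to 4432 (the high-spike set). Each set held 4 low and 4 high stress animals. The labels do not mention these sets. The actin control, read as the signal of its 3′ over that of its 5′ probe set, was 9.97 to 21.9 in the low-spike set and 5.28 to 8.80 in the high-spike set. All 8 measured cortex markers, among them STAR and CYP11A1, and all 5 measured medulla markers, among them PNMT and CHGB, passed the filter. The mean log2 signal of the 8 tested fibroblast and capsule markers was 8.99 to 9.41 in low stress and 8.96 to 9.51 in high stress animals. In whole-gland RNA, fewer cells of a type and less RNA per cell cannot be told apart.

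The 31 tested members had a mean log2 signal of at least 6.15, a signal of 71.1, which is the 40th percentile of all probe sets. They comprised 4 of 7 fibrillar collagens (COL1A2, COL2A1, COL5A1, COL5A3), 2 of 3 basement membrane collagens (COL4A2, COL15A1), 2 of 5 other collagens (COL6A2, COL6A3) and all 3 laminins (LAMB1, LAMB2, LAMC1). All 6 adhesive and microfibril glycoproteins (FN1, FBN1, FBLN1, THBS1, THBS2, THBS3), 3 of 4 proteoglycans (BGN, DCN, LUM) and all 4 matricellular and small matrix proteins (SPARC, MGP, POSTN, DPT) were tested. The list was completed by 2 of 8 MMP proteases (MMP2, MMP14), 2 of 3 ADAMTS proteases (ADAMTS1, ADAMTS6) and 3 of 4 tissue inhibitors (TIMP1, TIMP2, TIMP3). Of these 31, 27 were at or above that signal on every array, while ADAMTS6 was so on 8 arrays, DPT on 12, and COL2A1 and POSTN on 15 each.

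The other 16 members had a lower mean and were not tested, and 10 of them were below that signal on every array. They were COL3A1, COL5A2, COL7A1, COL8A1, COL10A1, COL11A1, COL17A1, VCAN, MMP1, MMP3, MMP7, MMP9, MMP13, MMP20, ADAMTS20 and TIMP4. The probe set of COL3A1, a major chain of soft-tissue collagen fibres, had signals from 10.2 to 77.6 in low stress and from 23.4 to 63.4 in high stress animals. That of MMP9, the gelatinase carried by neutrophils, ranged from 11.5 to 73.4 and from 29.1 to 81.7. No level and no fold is drawn for these genes, and whether a dim value comes from the probe or from the transcript was not tested.

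The comparison of high with low stress asks whether the gland's matrix genes differed between animals chosen for their fighting and cortisol. With limma and adjustment over 14399 probe sets, 0 of the 31 members passed an adjusted p of 0.05, against 0% of all probe sets. Of the members, 12 were higher (38.7%, against 50.2% of all genes tested) and 19 lower in high stress. Their median log2 difference was -0.05, against 0.00 over all genes tested. This split depended on scaling, because centring each array on its median gave 18 higher and 13 lower. That shift was shared by all probe sets, of which 60.8% were higher with centring. The spike-in set as a block left the members' differences unchanged, with 12 members and 41.6% of all probe sets higher. The 50.2% above counts genes by their brightest probe set, whereas the 41.6% counts all probe sets. At an unadjusted p of 0.05, 3 members passed, or 9.68%, against 3.01% of all genes tested. They were COL15A1, TIMP1 and THBS2, each with an adjusted p of 0.999 by limma, and quantile normalization left only COL15A1 among them. In all 31 members the signals of the 2 stress groups overlapped. The same share over all genes tested was not taken, so this count only describes the members. The 95% confidence interval lay within a 1.5-fold change in either direction for 21 members and within a 2-fold change for 29. This fit has no term for the spike-in set, so its standard errors and intervals also hold the difference between the sets.

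**Figure D1:**
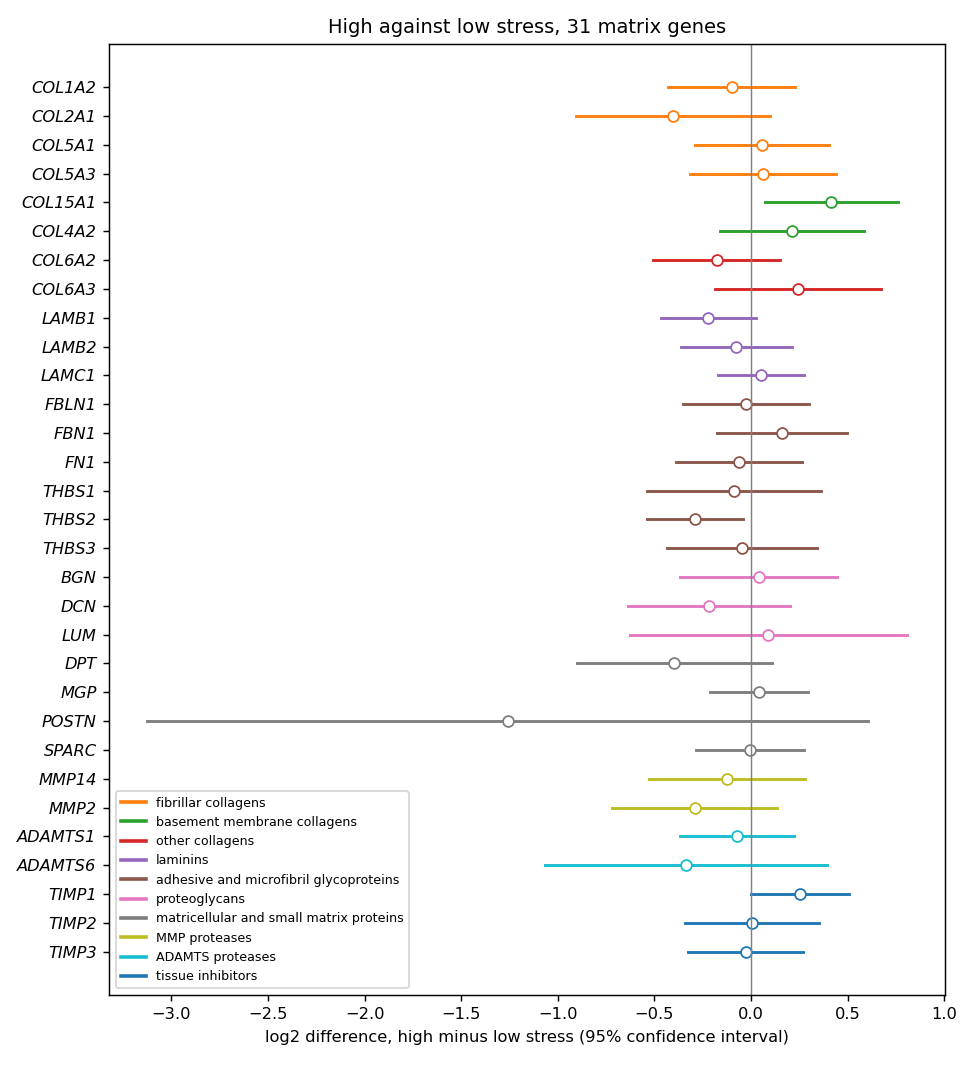
Log2 difference of high minus low stress (horizontal axis) for each of the 31 tested matrix genes, coloured by role, with the 95% confidence interval from limma over 8 animals in each group. The intervals of COL15A1 and TIMP1 lie above 0 and that of THBS2 below it before adjustment, POSTN has the widest interval, and no gene passed after adjustment.

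With the spike-in set as a block, limma called 0 of the 31 members, against 0.00694% of all probe sets (1 of 14399). At an unadjusted p of 0.05 the same fit passed 3 members, against 6.2% of all genes tested, and the smallest adjusted p among members was 0.68, for COL15A1. Taken within each set, the sign of the difference was the same in both for 18 of 31 members.

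COL15A1 encodes the chain of collagen XV, a collagen of basement membrane zones around vessels and muscle. Its signal ran from 2014 to 3614, with a median of 2957, in low stress animals, and from 2713 to 5668, with a median of 3799, in high stress animals. Of the high stress animals, 7 of 8 exceeded the mean of the low stress group, and the groups overlapped. The difference was 1.33-fold, or log2 0.42 with a standard error of 0.16 and a 95% interval of 0.07 to 0.76 (limma adjusted p = 0.999). It was 0.26 within the low-spike and 0.57 within the high-spike set. Leaving out each animal in turn gave 0.33 to 0.48.

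COL4A2, a chain of the collagen IV network that every basement membrane contains, had signals of 605 to 1641 with a median of 1068 in low stress and of 851 to 1594 with a median of 1368 in high stress. The difference was log2 0.21 (SE 0.18, limma adjusted p = 0.999), with 0.04 in the low-spike and 0.38 in the high-spike set, and the high stress values lay inside the low stress range.

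Among the laminins, the cross-shaped trimers of basement membranes, LAMB1 encodes the beta 1 chain, LAMB2 the beta 2 chain and LAMC1 the gamma 1 chain that most laminins share. LAMB1 signals lay in the narrow range of 3028 to 3420, with a median of 3181, in low stress animals. In high stress animals they spread from 1948 to 3648, with a median of 2646, so the high stress values reached both below and above the low stress range. The log2 difference was -0.22 (SE 0.12, limma adjusted p = 0.999). LAMB2 differed by -0.08 (SE 0.14) and LAMC1 by 0.05 (SE 0.11), both on the log2 scale. LAMC1 had 3 further probe sets above the filter, which gave -0.0021, -0.28 and -0.19.

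Among the fibrillar collagens, COL1A2, the alpha 2 chain of collagen I, had signals of 218 to 415 with a median of 252 in low stress and of 187 to 374 with a median of 241 in high stress. Its log2 difference was -0.10 (SE 0.16). COL5A1, a chain of the collagen V that starts fibril assembly, differed by 0.05 (SE 0.16), and the cartilage collagen gene COL2A1 by -0.40 (SE 0.24), with -0.60 in the low-spike and -0.21 in the high-spike set. COL5A3, another collagen V chain, differed by 0.06 and is given although the rule for named genes did not pick it. All 4 ranges overlapped between the groups.

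COL6A2 and COL6A3 encode chains of collagen VI, which forms beaded filaments close to cells. COL6A2 had signals of 161 to 321 with a median of 290 in low stress and of 171 to 337 with a median of 230 in high stress, a log2 difference of -0.18 (SE 0.16). COL6A3 had signals of 314 to 735 with a median of 583 and of 332 to 860 with a median of 682, a log2 difference of 0.24 (SE 0.20). The 2 chains thus had opposite signs, and neither difference exceeded the spread between animals.

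**Figure D2:**
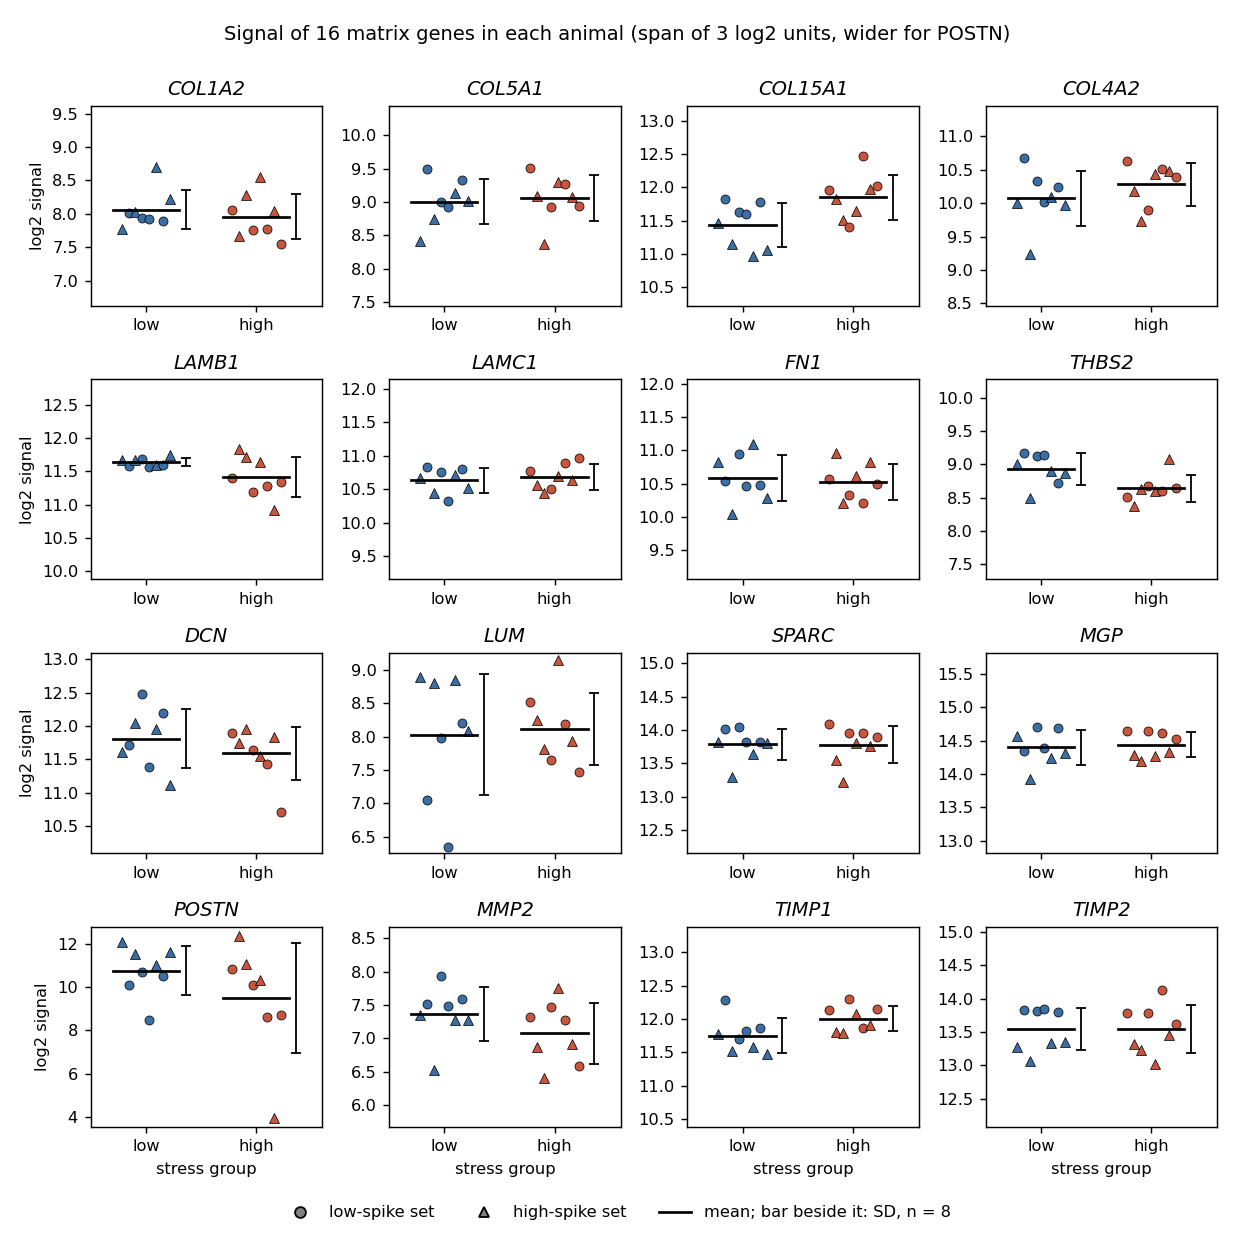
Log2 signal of 16 of the tested matrix genes in each of the 16 animals, with low stress in blue, high stress in red, circles for the low-spike and triangles for the high-spike set, a line for the mean and a bar for the SD of 8 animals. Every panel spans 3 log2 units except that of POSTN, where 1 high stress animal lies at 3.96. Levels should be read within a panel, not between panels.

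THBS2 encodes thrombospondin 2, a matricellular protein that restrains vessel growth. Its signal was 359 to 576 with a median of 495 in low stress and 332 to 542 with a median of 392 in high stress animals. A single high stress animal, replicate 7, exceeded the mean of the low stress group, and it stood apart at a log2 signal of 9.08 from the others at 8.37 to 8.67. The log2 difference was -0.29 (SE 0.12, 95% interval -0.54 to -0.04, limma adjusted p = 0.999), with -0.43 in the low-spike and -0.15 in the high-spike set.

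THBS1, the related thrombospondin that can activate latent TGF-beta, had a log2 difference of -0.55 in the low-spike and of 0.37 in the high-spike set. THBS3, which the rule for named genes did not pick, had -0.39 and 0.29. These were the 2 of 31 members (6.45%) with an unadjusted interaction p under 0.05, against 2.29% of all genes tested. Neither passed adjustment over all probe sets (limma adjusted p = 0.9996 for both), where limma called 0 interactions.

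Fibronectin (FN1), the adhesive glycoprotein that integrins bind, had signals of 1052 to 2173 with a median of 1455 in low stress and of 1181 to 1991 with a median of 1476 in high stress. Its log2 difference was -0.06 (SE 0.15). FBN1, the main protein of elastic microfibrils, differed by 0.16 (SE 0.16), and FBLN1, which binds fibronectin and elastic fibres and was not picked by the rule, by -0.03. None of these exceeded the spread between animals.

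Decorin (DCN) and lumican (LUM) are small leucine-rich proteoglycans that regulate the width of collagen fibrils, and biglycan (BGN) is a close relative of decorin. DCN signals ran from 2228 to 5680 with a median of 3672 in low stress and from 1680 to 3963 with a median of 3296 in high stress, a log2 difference of -0.22 (SE 0.20). LUM differed by 0.09 (SE 0.34), with 0.55 in the low-spike and -0.37 in the high-spike set. BGN differed by 0.04 and was not picked by the rule. The 3 proteoglycans overlapped between the groups.

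SPARC, a collagen-binding matricellular protein, had signals of 10053 to 16928 with a median of 14520 in low stress and of 9572 to 17400 with a median of 14778 in high stress, and its log2 difference was -0.0046 (SE 0.13). MGP, the vitamin K-dependent inhibitor of calcification, differed by 0.04 (SE 0.12). The 95% interval was -0.28 to 0.27 for SPARC and -0.21 to 0.30 for MGP. DPT, dermatopontin, which binds decorin and helps fibrils form, differed by -0.40 (SE 0.24), with -0.66 in the low-spike and -0.14 in the high-spike set.

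POSTN encodes periostin, a matricellular protein secreted by fibroblasts. Its signal ran from 359 to 4400 with a median of 1856 in low stress and from 15.6 to 5296 with a median of 1192 in high stress animals. The lowest value belonged to high stress replicate 7, and the other 7 high stress animals had log2 signals of 8.59 to 12.37, against 8.49 to 12.10 in low stress. The log2 difference was -1.26 (SE 0.89, 95% interval -3.12 to 0.60, limma adjusted p = 0.999), and without that animal it was -0.47. It was -0.39 within the low-spike and -2.13 within the high-spike set, which holds that animal.

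Within each spike-in set, 4 low stress animals were set against 4 high stress animals. In the low-spike set the 2 stress groups did not overlap for 3 members (9.68%), all lower in high stress, against 4.6% of all genes tested. LAMB1 signals were 3028 to 3287 in low stress and 2335 to 2707 in high stress there, THBS2 signals were 423 to 576 and 364 to 408, and MMP2 signals were 179 to 245 and 96.3 to 177. In the high-spike set they did not overlap for 2 members (6.45%), both higher in high stress, against 1.63% of all genes tested. COL15A1 signals were 2014 to 2814 in low stress and 2907 to 4033 in high stress there, and TIMP1 signals were 2833 to 3510 and 3545 to 4292. No member separated the groups in both sets.

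Of the proteases, MMP2 encodes gelatinase A, which cuts denatured collagen and collagen IV. Its signal was 91.9 to 245 with a median of 171 in low stress and 85.1 to 216 with a median of 138 in high stress, a log2 difference of -0.29 (SE 0.20, limma adjusted p = 0.999). MMP14, the membrane protease that activates the MMP2 precursor, differed by -0.12, and ADAMTS1, a secreted protease that cuts proteoglycans, by -0.07, neither of them picked by the rule. ADAMTS6, a secreted protease of the same family, differed by -0.33 (SE 0.35). All 4 tested proteases had a lower mean in high stress over the 16 animals, and none passed adjustment. The sign for ADAMTS1 was not stable. Its log2 difference was -0.23 within the low-spike and 0.09 within the high-spike set, and 0.00019 with median centring.

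TIMP1 encodes a secreted inhibitor of most MMPs. Its signal was 2833 to 4980 with a median of 3411 in low stress and 3545 to 5038 with a median of 4063 in high stress animals. Each of the 8 high stress values exceeded the mean of the low stress group, and the groups overlapped. The log2 difference was 0.25 (SE 0.12, 95% interval 0.00 to 0.51, limma adjusted p = 0.999), with 0.20 in the low-spike and 0.31 in the high-spike set. TIMP2, which also takes part in MMP2 activation, differed by 0.00 (SE 0.16), and the matrix-bound inhibitor TIMP3 by -0.03 (SE 0.14).

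More matrix genes were called between the spike-in sets than between the stress groups. With stress group in the model, limma called 12 of 31 members at an adjusted p under 0.05 (38.7%), against 40.6% of all genes tested, a share near the background. ADAMTS6, among the 12, passed the filter through the set in which it was higher, and without it 11 of 30 members (36.7%) were called. Of the 12 called, 10 were lower and 2 higher in the high-spike set. Of the 2216 called among all 5455 genes tested, 1321 were lower and 895 higher (24.2% and 16.4% of the genes tested). The median log2 difference, high-spike minus low-spike, was -0.15 over the members and -0.11 over all genes tested. Centring each array on its median moved the median of all probe sets from -0.02 to -0.15 and gave 14 members lower and 1 higher (48.4% called, against 47.5% of all probe sets). The count was 6 of 31 (19.4%) without low stress replicate 3, against 35.2% of all probe sets. It was 7 of 31 (22.6%) without low stress replicate 2 and also without replicate 6 of that group, against 38.2% and 37.8% of all probe sets. With no filter it was 7 of 47 (14.9%), against 21.9%. In these settings with 6 or 7 calls, the lowest counts, the members' share was below that of all probe sets. It was above it with median centring and without high stress replicate 5 (38.7% against 36.6%) or replicate 7 (45.2% against 43.0%). The labels give no origin for the sets, so tissue, RNA and array processing cannot be told apart here.

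TIMP2 was the only member of 31 whose 2 sets did not overlap, against 6.21% of all genes tested, with signals of 12639 to 17989 in the low-spike and of 8343 to 11286 in the high-spike set. Its log2 difference was -0.57 (SE 0.09, limma adjusted p = 0.00014), while a second TIMP2 probe set gave -0.24. LAMB2 fell by 0.40 (SE 0.09, limma adjusted p = 0.0031), with signals of 355 to 508 against 278 to 376. COL6A2 fell by 0.43 (limma adjusted p = 0.0071), MGP by 0.31 (0.0134) and SPARC by 0.34 (0.0139). COL15A1 fell by 0.38 (limma adjusted p = 0.030) and TIMP1 by 0.27 (0.0321), so both of these were lower in the high-spike set and had higher means in high stress within each set. BGN, THBS3 and COL5A3, which are outside the rule for named genes, fell by 0.47, 0.41 and 0.40.

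ADAMTS6 and LUM were the members higher in the high-spike set. ADAMTS6 signals were 41.9 to 74.1 in the low-spike and 59.99 to 206 in the high-spike set, a log2 difference of 1.14 (SE 0.22, limma adjusted p = 0.00079). Of the 8 arrays on which ADAMTS6 reached the filter signal, 7 were high-spike. LUM signals were 81.8 to 366 and 224 to 571, a log2 difference of 0.80 (SE 0.29, limma adjusted p = 0.0377). POSTN differed by 0.74 (SE 0.89) and was not called. Without high stress replicate 7, a high-spike array, it differed by 1.65 (limma adjusted p = 0.0046). That animal was singled out because its POSTN value was the lowest, so this result is not counted as a call. Probe sets of 1 gene could disagree: the brightest probe set of FBN1 gave -0.11 and that of LAMB1 0.15, while a second probe set gave 0.57 (limma adjusted p = 0.0089) and 0.76 (limma adjusted p = 0.0010).

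Of 7 tested smooth muscle markers, 5 (71.4%) were called between the sets, against the same 40.6% of all genes tested, all lower in the high-spike set, with a median log2 difference of -0.43, and the mean log2 signal of the list was 9.79 to 10.41 in the low-spike and 8.95 to 9.99 in the high-spike set. Of 8 fibroblast and capsule markers, 2 (25.0%) were called, 1 lower and 1 higher, with a median of -0.22, and the list's mean overlapped between the sets at 8.96 to 9.51 and 8.99 to 9.29. Of 8 endothelial markers 3 were called, of 8 cortex markers 3, and of 5 medulla markers 1. The part of these markers and of the actin ratio in the members' differences was not tested.

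**Figure D3:**
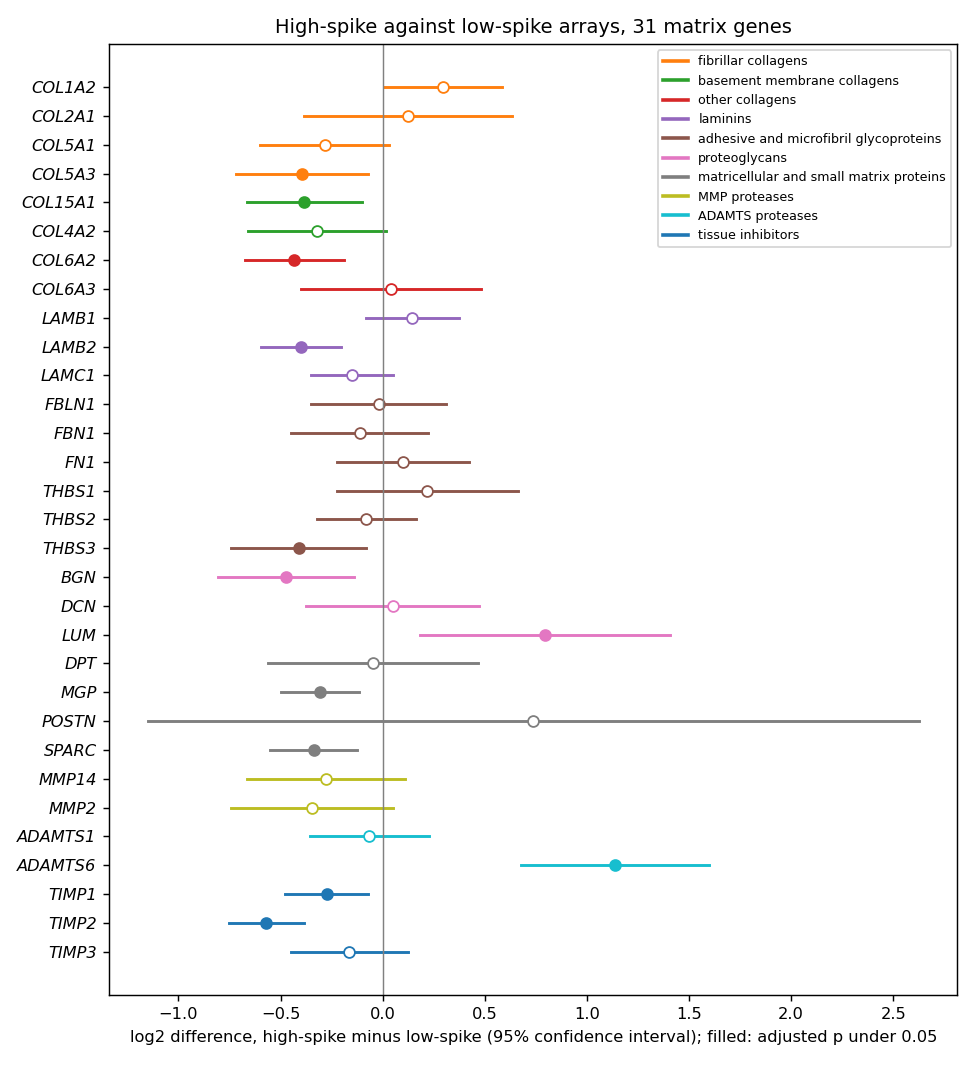
Log2 difference of the high-spike minus the low-spike arrays (horizontal axis) for the 31 tested matrix genes, coloured by role, with the 95% confidence interval from limma over 8 arrays in each set, and filled points for an adjusted p under 0.05. TIMP2 at -0.57 and 9 other genes are filled to the left of 0, and ADAMTS6 at 1.14 and LUM at 0.80 to the right.

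The spread between animals was wider at the median over the members than over all genes tested. The residual SD of log2 signal, after stress group and set were taken out, had a median of 0.32 over the members and 0.23 over all genes tested, and 22 of 31 members lay above the latter. POSTN had a residual SD of 2.01, which 3 of 5455 genes exceeded. Next came LUM with 0.64, DPT with 0.54, COL2A1 with 0.53, ADAMTS6 with 0.47 and THBS1 with 0.46.

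The SD of LAMB1, taken over both spike-in sets, was 0.06 in low stress and 0.30 in high stress animals (n = 8 each). That ratio was reached by 3 of 5455 genes (0.0550%). Part of the high stress SD lay between the sets. High stress signals were 2335 to 2707 in the low-spike set. In the high-spike set they were 3648, 3348, 3204 and, for replicate 7, 1948. Low stress signals were 3028 to 3287 and 3112 to 3420. Without high stress replicate 7 the high stress SD was 0.24, which still holds the difference between sets. The second LAMB1 probe set had SDs of 0.34 in low stress and 0.63 in high stress, again over both sets. Over the members the SD was larger in high stress for 17 of 31, and the median ratio was 1.02 against 1.07 over all genes tested. The difference in spread of LAMB1 was picked out after its values were seen and was not tested.

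Covariation was measured over the 16 animals on deviations from the mean of each spike-in set, which all members share as samples and arrays. The median Pearson r over the 465 pairs of tested members was 0.19, against 0.01 over all gene pairs. It was 0.21 within the low-spike and 0.22 within the high-spike set, and with median centring it was 0.14 against 0.10 over all genes. An r over 0.5 was found for 12.3% of member pairs and 6.38% of all pairs, and 28.6% and 49.0% were below 0.

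The highest median r with the other members belonged to COL4A2 (0.41), TIMP3 (0.35), BGN (0.34), FBLN1 (0.33), COL6A3 (0.33), SPARC (0.32) and LAMB2 (0.32). Within them, SPARC had an r of 0.73 with BGN and 0.73 with COL6A3, and FBLN1 an r of 0.72 with TIMP3. The lowest belonged to ADAMTS6 (-0.08), LAMB1 (-0.08), POSTN (-0.08) and COL6A2 (-0.02). The 6 glycoproteins had a median r among themselves of 0.37, the 3 proteoglycans of 0.32, the 4 fibrillar collagens of 0.20 and the 3 laminins of 0.09.

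**Figure D4:**
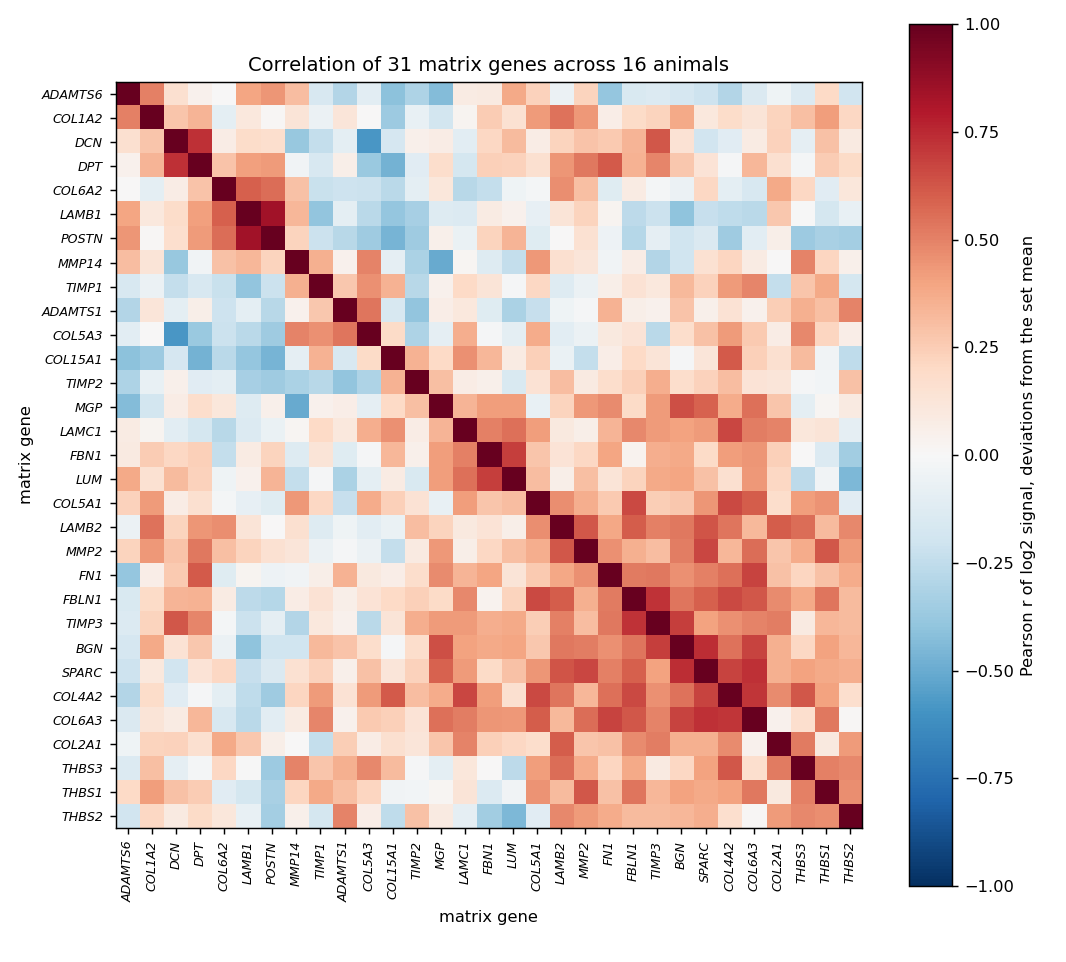
Pearson r of log2 signal, as deviations from the mean of the spike-in set, between each pair of the 31 tested matrix genes over 16 animals, ordered by similarity. A block from COL5A1 to THBS2 with COL4A2, SPARC, BGN and COL6A3 is mostly red, while POSTN, LAMB1 and COL6A2 form a small block with negative values against many of the others.

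For partners known from textbooks, 16 pairs could be tested, 5 of 18 pairs listed first and 11 added, after the data were seen, because most of the first list had a chain that was not analysed here. The adjustment over the 16 does not cover that choice. COL4A2 and LAMC1, which meet in basement membranes, had r = 0.66 (permutation p = 0.00137, adjusted 0.0219 over the 16 pairs and 0.243 over all 465 member pairs) and rho = 0.65 (permutation p = 0.0084, adjusted 0.0715). Their r was 0.75 and 0.76 within the sets and 0.61 without the 2 animals farthest from the median of COL4A2. With the other 3 LAMC1 probe sets in place of the brightest, r with COL4A2 was 0.50, 0.24 and 0.30, and no adjusted permutation p over the 16 pairs was under 0.05 (0.0890, 0.803 and 0.680). COL4A2 and COL15A1 had r = 0.61 and rho = 0.66 (permutation p = 0.0159 and p = 0.0089, adjusted 0.0850 and 0.0715). COL4A2 and SPARC had r = 0.68 and rho = 0.56 (permutation p = 0.0099 and p = 0.0361, adjusted 0.0796 and 0.193). These 3 pairs share COL4A2. On deviations from the set mean, only the first passed adjustment over the 16 pairs, by r, with the brightest LAMC1 probe set, and not by rho. With the mean of each stress group within a set removed, COL4A2 and SPARC also passed by r (r = 0.80, adjusted permutation p = 0.0106 over the 16 pairs).

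The other 13 pairs had adjusted permutation p-values for r from 0.525 to 0.845. COL6A2 and COL6A3, chains of the same collagen VI trimer, had r = -0.16, and LAMB1 and LAMC1, chains of the same laminin trimers, had r = -0.13. DCN and LUM had r = 0.32 and MMP2 and TIMP2 r = 0.09. Over all 465 member pairs, 0 passed an adjusted permutation p of 0.05, and 53 (11.4%) had an unadjusted p under 0.05, of which 51 were positive.

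POSTN and LAMB1 had the highest r of any member pair, 0.84 (permutation p = 0.0130, adjusted over 465 pairs 0.265), with rho = 0.55 (permutation p = 0.0221). The r was 0.33 within the low-spike and 0.98 within the high-spike set. Without high stress replicate 7, r was 0.39 and rho 0.40. Leaving out that animal and low stress replicate 5, the 2 farthest from the median of POSTN, gave r = 0.56. With the mean of each stress group within a set removed, r was 0.93, and 0.55 without high stress replicate 7, so its size depends on that animal. The second LAMB1 probe set had r = 0.76 with POSTN.

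**Figure D5:**
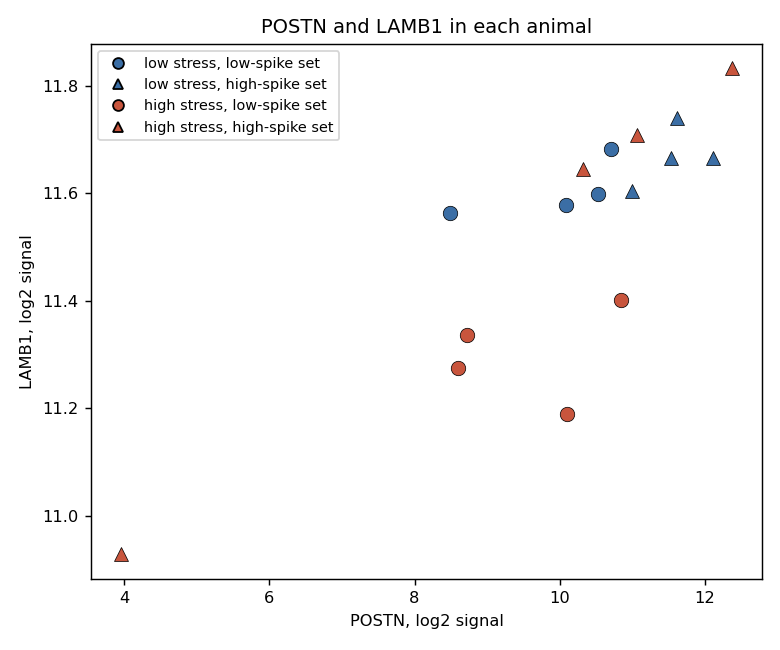
Log2 signal of POSTN (horizontal axis) and LAMB1 (vertical axis) in each of the 16 animals, coloured by stress group and shaped by spike-in set. High stress replicate 7 lies alone at the lower left with a POSTN value of 3.96 and a LAMB1 value of 10.93, and the 4 high stress animals of the low-spike set lie below the low stress animals on the LAMB1 axis.

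Across the 5455 genes tested, LAMB1, PBLD and UPK2 had the highest r with POSTN (0.84, 0.83 and 0.82), and USP11 the lowest (-0.88). For COL15A1 the highest r was with TXNRD1 (0.80), S100A11 (0.79) and PRDX4 (0.79), and the lowest with FAIM (-0.81). These are descriptions over 16 animals, and the genes of each pair were read on the same arrays. With PBLD, the r of POSTN was 0.35 without high stress replicate 7.

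Genes that build, bind or control the matrix were read from lists of textbook members, and limma called 0 of them at an adjusted p under 0.05 between the stress groups. Of 11 tested genes of collagen folding, crosslinking and processing, 9 had a higher mean in high stress and 2 a lower one, at a median log2 difference of 0.06. The procollagen-cutting protease BMP1 differed by -0.25 (SE 0.22) and the collagen chaperone SERPINH1 by 0.12 (SE 0.14). Of 10 matrix receptors, 5 were higher and 5 lower. The heparan sulfate proteoglycan SDC1 differed by 0.44 (SE 0.17, limma adjusted p = 0.999) and the collagen receptor DDR1 by -0.15 (SE 0.11).

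Of 8 genes of TGF-beta signalling, the pathway that drives matrix production, 2 were higher and 6 lower, at a median of -0.12. SMAD3, its transcription factor, differed by -0.34 (SE 0.16) and the co-receptor ENG by -0.22 (SE 0.17). Of 11 other matrix genes, 3 were higher and 8 lower, at a median of -0.20. CILP, a cartilage and fibroblast matrix protein, differed by 0.66 (SE 0.28, limma adjusted p = 0.999), and tenascin C (TNC) by 0.56 (SE 0.26, limma adjusted p = 0.999). Beside these, 6 of 7 smooth muscle markers were higher in high stress, with a median of 0.08. The 2 of smallest p, TAGLN and TPM2, differed by 0.50 (SE 0.20) and 0.57 (SE 0.26), each with a limma adjusted p of 0.999. ACTA2 differed by 0.33 (SE 0.34), CNN1 by 0.04, DES by 0.08, SMTN by 0.06 and MYL9 by -0.24. The mean log2 signal of these markers was 8.95 to 10.35 in low stress and 9.39 to 10.41 in high stress animals. Of 8 endothelial markers, 3 were higher and 5 lower, with a mean log2 signal of 8.76 to 9.35 and 8.81 to 9.17. The part of either cell type in the members' differences was not tested.

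Of the 47 members, 24 had more than 1 probe set. For 8 tested members, 10 further probe sets passed the filter, and 5 of these had the same sign as the brightest in the stress comparison. ADAMTS1, FBN1, LAMB1 and THBS3 had further probe sets that followed the brightest at r = 0.70, 0.77, 0.92 and 0.76. TIMP3 had a further probe set at r = 0.01, TIMP2 at r = 0.42 and COL5A1 at r = 0.52. The 3 of LAMC1 lay, in the order of their differences above, at r = 0.85, 0.22 and 0.55. The values of these genes depend on the probe set chosen.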

How the data were processed

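The authors deposited MAS5 signals, linear intensity values made with Affymetrix Expression Console 1.1.1 and MAS5, per the submitters' processing notes. Each deposited column had a trimmed mean intensity of 500, and its settings are not given in the sources used here. The 124 control probe sets were set aside and 23999 kept, of which 10069 had 1 symbol, 198 several and 13732 none. All 47 members matched the RefSeq gene table by gene number, with 0 symbols changed.

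Values were taken to log2, probe sets under the 40th percentile of mean log2 signal were left out, and the remaining 14399 entered limma 3.58.1 (R 4.3.3, two-sided, Benjamini-Hochberg, adjusted p under 0.05). The animals carry separate numbers, and the limma p-values set each difference against the spread between arrays of different animals. In the main stress comparison that spread also holds the difference between the spike-in sets. The spike-in sets were read from the data, divided at the widest gap in the dap signal. Correlation p-values come from 100000 exchanges within the sets, two-sided. The scripts were tested on simulated data. Figures used matplotlib 3.10.9 in Python 3.11.15.

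Members, lists and tests were chosen with earlier results of these data known. Values are given for the 6 members of smallest p in either direction, the smallest p in each role, members of the pairs, the 5 smallest p either way between the sets, the 6 largest residual SDs and, in each pathway list, the 2 smallest p. Members named outside this rule were chosen after their values were seen. Alternatives were other filters, quantile normalization, median centring, a pseudocount of 23.5, an intensity trend, array weights, blocks, the mean of probe sets and leaving out each animal. The 11 added pairs, all pairs, the further LAMC1 probe sets, the correlations within each set and those without high stress replicate 7 were added after seeing the data.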

Additional observations from a re-analysis of the deposited data

Results flagged for a closer look

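In 6 of 62 groups of 8 animals (9.68%), the most extreme animal stood apart from the others by Dixon's ratio, where chance gives about 1 in 20. In high stress replicate 7, POSTN was at a log2 signal of 3.96, with the others at 8.59 to 12.37, and THBS2 was at 9.08, with the others at 8.37 to 8.67. In low stress replicate 3, BGN was at 9.45, with the others at 10.05 to 10.59, and MMP2 was at 6.52, with the others at 7.28 to 7.94. COL2A1 was at 5.18 in high stress replicate 4, with the others at 6.23 to 7.10. DCN was at 10.71 in high stress replicate 8, with the others at 11.42 to 11.95.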

How the results depend on the processing

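In every alternative run, 0 members were called between the stress groups. Of all probe sets, 0% were called in the main fit and 0.00694% with the spike-in set as a block. That share is not given here for the other runs, so their counts only describe the members. The number at an unadjusted p under 0.05 was 3 in the main limma fit. It ranged from 1 with quantile normalization (2.94% of all probe sets) to 4 with array weights (5.46%). When each animal was left out it was 2 to 4, with 4 without high stress replicate 3 (4.73% of all probe sets). Within the low-spike set it was 4, all lower in high stress (7.38%), and within the high-spike set 2, both higher (2.83%). Between the spike-in sets the 12 calls among 31 members became 7 of 47 with no filter (21.9% of all probe sets called) and 6 to 14 of 31 when each animal was left out (35.2% of all probe sets at 6 calls and 43.0% at 14). The median correlation of members ranged from 0.14 to 0.22. Among the 25 members named by the rule, the sign of the stress difference changed in 43 of 646 values, in 10 members. The log2 difference became 0.012 for FN1, 0.068 for SPARC and 0.044 for TIMP3 with median centring, -0.030 for TIMP2 and 0.012 for TIMP3 with quantile normalization, 0.0085 for SPARC with array weights, and -0.10 for LAMC1 and -0.061 for TIMP2 with the mean of all probe sets. Within the low-spike set it was -0.026 for COL5A1 and 0.046 for SPARC, and within the high-spike set 0.087 for DCN, 0.089 for FN1, -0.0013 for LAMC1, -0.37 for LUM, 0.37 for THBS1, -0.0015 for TIMP2 and 0.0028 for TIMP3. When each animal was left out it ranged from -0.030 to 0.15 for COL5A1, -0.14 to 0.011 for FN1, -0.15 to 0.21 for LUM, -0.026 to 0.087 for MGP, -0.074 to 0.075 for SPARC, -0.081 to 0.078 for TIMP2 and -0.090 to 0.033 for TIMP3. With median centring the correlation of COL1A2 became -0.022 with SPARC and -0.025 with FN1. With the mean of each stress group within a set removed, that of COL4A2 and SPARC became 0.80 and passed adjustment over the 16 pairs (adjusted permutation p = 0.0106). The causes were not tested. The labels give no replicate number that the groups share. With spike-in set and the leading digit of the animals' numbers as blocks, which leaves 1 animal of each stress group per combination, 0 members were called and 3 had an unadjusted p under 0.05, against 6.34% of all probe sets. The 16 members below the filter have no test in the main setting.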
